A study of Homo sapiens with 6 samples.

Results

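The 33 genes described here carry out homologous recombination, Fanconi anaemia crosslink repair and the DNA damage checkpoint. They were taken by symbol from a count table of 23228 gene symbols, and all 33 were in the table and passed the filter on low counts, which left 14504 genes in all. Polyadenylated RNA was sequenced from U2OS, an established human osteosarcoma line, in 2 groups of 3 libraries each. In the ALKBH5 knockdown group the cells were transfected for 48 hours with siRNA against ALKBH5, an enzyme that removes the N6-methyladenosine mark from RNA. In the scrambled group the cells received a scrambled siRNA with the same lipid reagent for the same 48 hours. The labels name no other allele or agent in this 1 line and do not say how many siRNAs against ALKBH5 were used, and no rescue was analysed here, so loss of ALKBH5 and other effects of the siRNA cannot be told apart.

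Homologous recombination repairs a broken chromosome by copying the intact sister chromatid. The break is sensed and its ends are cut back, BRCA1 and BARD1 bring in PALB2 and BRCA2, and BRCA2 loads a recombinase that carries the strand into its partner, helped by the recombinase paralogs and by DNA translocases. The Fanconi pathway frees DNA strands that are joined by a crosslink: a core complex attaches ubiquitin to FANCD2 and FANCI, which then recruit nucleases. The kinases ATM and ATR signal damage through CHEK2 and CHEK1 and hold the cell cycle, and many genes of these pathways are transcribed mainly as cells enter and pass S phase.

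ALKBH5 itself was at 19.4, 16.1 and 15.7 CPM (the reads of a gene scaled to library size with TMM factors) in the ALKBH5 knockdown libraries, against 138, 148 and 143 CPM in the scrambled libraries. The knockdown libraries had an 8.35-fold lower level, with a log2 fold change of -3.06 (SE 0.10) and an adjusted p = 1.6e-09 by the quasi-likelihood test of edgeR with Benjamini-Hochberg adjustment. The exact permutation p was 0.1, the smallest that 3 against 3 allows. Reads in genes numbered 19748583 to 19919797 in knockdown libraries and 18817181 to 23410007 in scrambled libraries. Mesenchymal markers summed to 6900 to 7720 CPM in knockdown libraries and 6408 to 6871 CPM in scrambled libraries. Of these, FN1, COL1A1 and RUNX2 were higher (log2 fold changes 1.07, 0.40 and 0.73), and VIM and SPARC were lower (-0.39 and -0.51). COL1A2 was at 1.64, 0.95 and 0.77 CPM in knockdown libraries, against 1.04, 9.70 and 2.56 CPM in scrambled libraries. The COL1A2 change did not pass the test (log2 fold change -1.97, adjusted p = 0.083, edgeR). Epithelial markers summed to 75.3 to 83.6 CPM in knockdown libraries and 48.8 to 52.5 CPM in scrambled libraries, with CLDN4 (1.07) and CDH1 (1.45) higher and KRT14 (-4.51) and CLDN7 (-2.46) lower. Leukocyte markers summed to 91.5 to 196 CPM in knockdown libraries and 19.5 to 25.5 CPM in scrambled libraries, most of it LCP1 (2.89), while PTPRC was lower (-1.06) and CD3E had 0 reads in all 6 libraries. Endothelial markers summed to 1.37 to 2.41 CPM in knockdown libraries and 6.22 to 8.74 CPM in scrambled libraries, with VWF (-2.70) and KDR (-3.81) lower. The part of these shifts in the results was not tested. Separate cultures are not named in the labels, so all p-values here rest on the spread among the 6 libraries, which could be technical alone.

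In ALKBH5 knockdown cells, 6 of the 33 repair genes rose, 14 fell and 13 did not pass the test. The 6 that rose were BRCA1, BARD1, BRCA2, XRCC2, RAD51AP1 and NBN. The 14 that fell were RBBP8, PALB2, RAD51D, RAD54L, RAD54B, BLM, TOPBP1, CHEK2, FANCA, FANCC, FANCF, FANCG, FANCL and FANCI. The kinases ATM, ATR and CHEK1 were among the 13 that did not pass. A gene was called at an adjusted p under 0.05 in edgeR's quasi-likelihood test, with Benjamini-Hochberg adjustment over all 14504 genes. Called genes made up 60.6% of the 33, near the 61.6% of all tested genes, so the share called sets these genes apart in no way. Of all tested genes, 30.8% were higher and 30.8% were lower, beside 18.2% higher and 42.4% lower of the 33.

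The changes were mostly small. The median size of the log2 fold change was 0.35 over the 33 genes (quartiles 0.10 and 0.67) and 0.46 over all tested genes (quartiles 0.21 and 0.88), and the signed medians were -0.11 and 0.01. RAD51AP1 was the 1 member called at 2-fold or more, 3.03% of the 33, where 20.0% of all tested genes were. At 1.5-fold or more 9 members were called, 27.3% of the 33, beside 38.4% of all tested genes. With glmTreat, which asks for more than a 1.5-fold change, RAD51AP1 was higher and RAD51D, BLM and CHEK2 were lower, 12.1% of the 33 beside 24.8% of all tested genes. The CPM of the groups did not overlap for 20 of the 33 members, 60.6%, beside 67.4% of all tested genes.

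**Figure D1:**
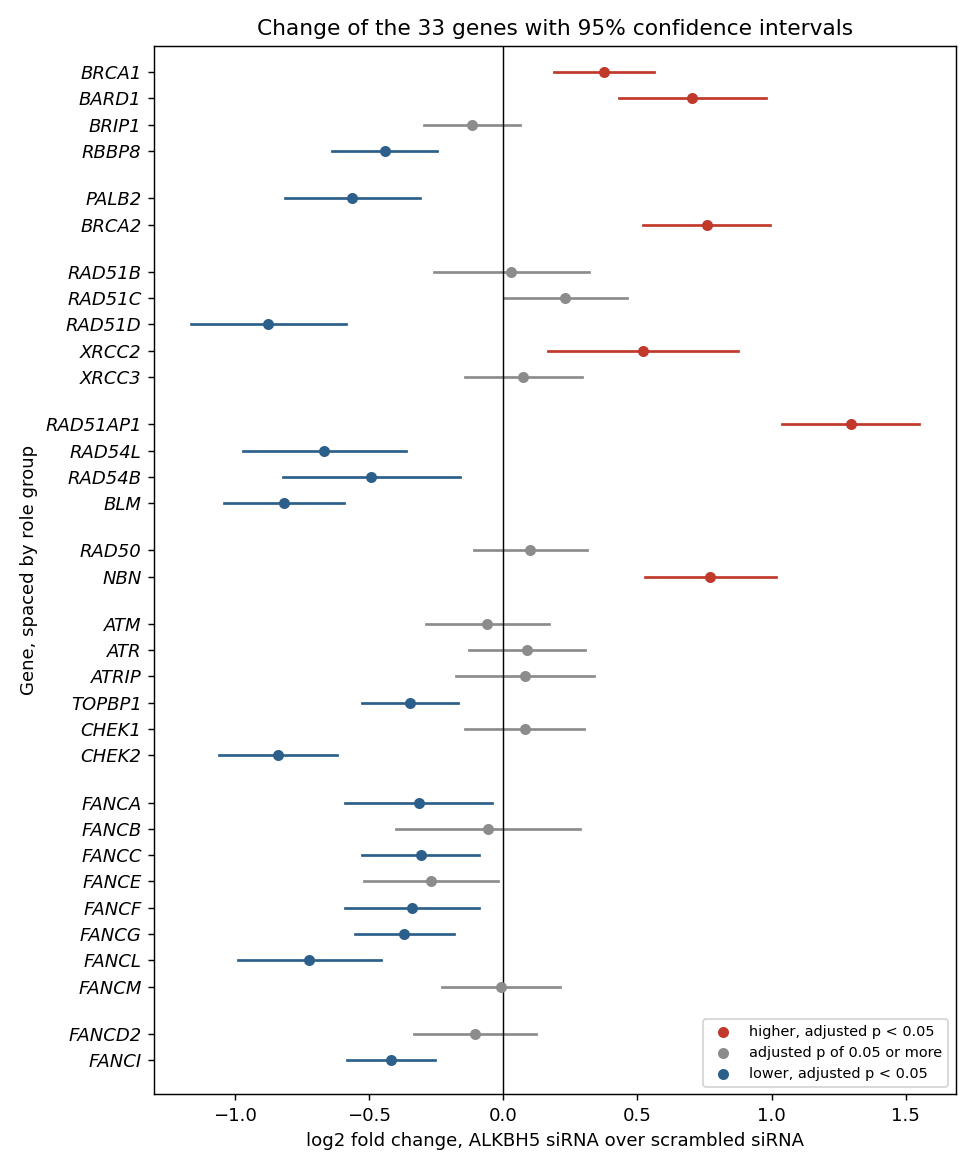
Log2 fold change of each of the 33 genes, ALKBH5 siRNA over scrambled siRNA, with 95% confidence intervals from edgeR, grouped by role. RAD51AP1 at 1.30 lies farthest to the right and RAD51D at -0.88 farthest to the left, and the intervals of most checkpoint kinases cross 0.

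Genes of S phase and mitosis also differed between knockdown and scrambled libraries and are given here beside all results below. Of 14 such genes, 13 fell and 0 rose, where 30.8% of all tested genes fell and 30.8% rose. CCNA2 did not pass (log2 fold change -0.15, adjusted p = 0.12 in edgeR's test), and the median log2 fold change of the 14 was -0.75. They summed to 2767 to 3056 CPM in knockdown libraries and 4883 to 5373 CPM in scrambled libraries. RRM2, a subunit of ribonucleotide reductase, averaged 89.9 ± 14.7 CPM in knockdown cells and 447 ± 34.1 CPM in scrambled cells (SD, n = 3 each), and CCNB1, the mitotic cyclin B1, averaged 169 ± 8.32 and 495 ± 16.6 CPM in the same order. In bulk RNA, fewer cells in a phase and less RNA per cell cannot be told apart, and the part of this shift in the results on repair genes was not tested.

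Promoter sequence is shown for 5 members, among them genes that share a word searched here and differed in their calls. The sequences are RefSeq's on GRCh38.p14, on the gene's strand, from 250 bases before to 30 bases after the start, and were found for 30 of the 33 members. Capitals mark the words searched on both strands, which are the E2F-like TTTGGCGC, TTTCCCGC, TTTGGCGG and TTTCCCGG, the CHR-like TTTGAA and TTCGAA, and CCAAT. XRCC2, which rose, lies at chr7:152676112-152676391 on the minus strand. FANCC, which fell, lies at chr9:95317680-95317959 on the minus strand. FANCD2, which did not pass the test, lies at chr3:10026187-10026466 on the plus strand. RAD51AP1 with the highest fold change lies at chr12:4538640-4538919 on the plus strand, and RAD51D with the lowest lies at chr17:35119729-35120008 on the minus strand.
XRCC2: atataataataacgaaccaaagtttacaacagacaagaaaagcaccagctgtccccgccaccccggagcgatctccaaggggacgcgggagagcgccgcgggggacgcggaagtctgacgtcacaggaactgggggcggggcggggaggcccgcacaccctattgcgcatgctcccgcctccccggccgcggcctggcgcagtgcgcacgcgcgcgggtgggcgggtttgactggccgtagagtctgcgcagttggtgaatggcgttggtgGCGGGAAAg
FANCC: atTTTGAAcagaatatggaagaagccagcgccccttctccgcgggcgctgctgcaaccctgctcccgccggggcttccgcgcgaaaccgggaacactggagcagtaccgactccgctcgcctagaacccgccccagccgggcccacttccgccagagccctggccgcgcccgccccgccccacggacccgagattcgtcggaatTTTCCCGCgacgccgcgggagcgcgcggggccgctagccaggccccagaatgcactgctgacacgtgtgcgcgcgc
FANCD2: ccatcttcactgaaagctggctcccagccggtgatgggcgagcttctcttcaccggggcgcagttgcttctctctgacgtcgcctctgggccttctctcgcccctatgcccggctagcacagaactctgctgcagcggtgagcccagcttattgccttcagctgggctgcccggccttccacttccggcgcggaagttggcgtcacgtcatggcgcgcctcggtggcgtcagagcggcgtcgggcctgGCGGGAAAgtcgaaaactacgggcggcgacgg
RAD51AP1: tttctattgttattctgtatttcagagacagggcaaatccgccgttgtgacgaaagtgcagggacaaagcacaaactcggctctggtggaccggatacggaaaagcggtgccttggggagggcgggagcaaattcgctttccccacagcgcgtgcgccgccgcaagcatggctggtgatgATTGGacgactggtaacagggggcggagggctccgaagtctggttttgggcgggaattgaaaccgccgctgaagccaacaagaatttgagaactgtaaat
RAD51D: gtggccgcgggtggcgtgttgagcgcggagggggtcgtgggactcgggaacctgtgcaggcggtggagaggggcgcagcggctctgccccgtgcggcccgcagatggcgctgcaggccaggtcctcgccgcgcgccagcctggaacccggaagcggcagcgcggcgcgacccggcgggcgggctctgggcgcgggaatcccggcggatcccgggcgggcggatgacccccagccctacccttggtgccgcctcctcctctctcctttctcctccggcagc

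In XRCC2 and FANCD2 the word GCGGGAAA is TTTCCCGC read on the other strand, and ATTGG in RAD51AP1 is CCAAT read on the other strand. FANCC carries TTTCCCGC and, farther from the start, TTTGAA. RefSeq lists more than 1 start for 10 of the 30 members, and the words were counted in the first window listed for each gene. FANCC and RAD51D have a second window each, with no E2F-like, CHR-like or CCAAT word in it. An E2F-like word lay in the first window of 5 of the 30 members, 16.7%, and in 4.3% of 27305 promoters of the same 300 bases. The other 2 members with one were ATR and RAD50, so of the 5 with such a word XRCC2 rose, FANCC fell, and ATR, RAD50 and FANCD2 did not pass the test. The calls of XRCC2 and FANCC were each lost in some fits with a library left out. Any part of the words in these changes was not tested. A CHR-like word lay in 3 of 30 (10.0%, against 16.6% of all promoters) and CCAAT in 13 of 30 (43.3%, against 35.7%), and BRCA1, outside these 13, holds CCAAT in its second window. These matches are letters in a window and were tied to no factor.

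At the break itself, NBN rose and its partner RAD50 did not pass the test. NBN, the nibrin subunit that brings ATM to broken ends, was at 47.4, 61.5 and 48.5 CPM in knockdown libraries, against 30.7, 30.4 and 31.1 CPM in scrambled libraries. The lowest knockdown library stood well above all scrambled libraries, and the fold was 1.71 (log2 fold change 0.77, SE 0.11, adjusted p = 7.8e-05 in edgeR's test). RAD50, the long coiled-coil ATPase that tethers the ends, was at 57.5, 69.0 and 57.1 CPM in knockdown libraries, against 59.5, 57.3 and 54.3 CPM in scrambled libraries. These values overlapped, and the 95% interval of the log2 fold change ran from -0.11 to 0.31 (adjusted p = 0.38, edgeR). In GENCODE 29, 79.7% of RAD50's exon bases are shared with a readthrough transcript, so its reads may include those of another gene. RBBP8, also called CtIP, starts the cutting back of the ends together with BRCA1. It averaged 80.0 ± 8.05 CPM in knockdown cells and 109 ± 5.33 CPM in scrambled cells (SD, n = 3 each), with no overlap between groups, and fell by 0.44 on the log2 scale (SE 0.09, adjusted p = 0.0011, edgeR). RBBP8 has 1 named pseudogene copy.

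BRCA1 and BARD1, the partners of a ubiquitin ligase that stabilise each other, both rose. BARD1 was at 20.3, 23.1 and 17.8 CPM in knockdown libraries, against 11.9, 12.97 and 12.7 CPM in scrambled libraries, 1.63-fold higher (log2 fold change 0.71, SE 0.13, adjusted p = 0.00039, edgeR). BRCA1 was at 60.4, 66.9 and 62.6 CPM in knockdown libraries, against 48.1, 47.5 and 50.7 CPM in scrambled libraries. For both genes each knockdown library was above each scrambled one, and BRCA1 was 1.30-fold higher (log2 fold change 0.38, SE 0.085, adjusted p = 0.0022, edgeR). BRIP1, a helicase that binds the BRCT repeats of BRCA1, had a log2 fold change of -0.12 (95% interval -0.30 to 0.06, adjusted p = 0.24, edgeR), with overlapping groups.

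The genes that load the recombinase moved in opposite directions. BRCA2, the loader, was at 44.5, 52.4 and 46.5 CPM in knockdown libraries, against 27.4, 31.5 and 25.9 CPM in scrambled libraries. PALB2, the bridge that holds BRCA2 to BRCA1, was at 17.1, 22.2 and 18.7 CPM in knockdown libraries, against 27.3, 29.1 and 29.4 CPM in scrambled libraries. Neither gene's groups overlapped. BRCA2 was 1.69-fold higher (log2 fold change 0.76, SE 0.11, adjusted p = 7e-05, edgeR) and PALB2 was lower by a factor of 1.48 (log2 fold change -0.56, SE 0.12, adjusted p = 0.0012, edgeR).

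Among the recombinase paralogs, which form complexes that steady the recombinase filament, XRCC2 rose, RAD51D fell and RAD51B, RAD51C and XRCC3 did not pass the test. RAD51D was at 8.75, 8.42 and 9.42 CPM in knockdown libraries, against 14.8, 15.7 and 18.4 CPM in scrambled libraries. XRCC2, which binds RAD51D directly, was at 10.2, 10.9 and 12.7 CPM in knockdown libraries, against 6.37, 8.45 and 8.84 CPM in scrambled libraries. In both genes the groups stood apart, in opposite directions. RAD51D had a log2 fold change of -0.88 (SE 0.13, adjusted p = 0.00011, edgeR), and XRCC2 one of 0.52 (SE 0.16, adjusted p = 0.015, edgeR). The XRCC2 call was lost without knockdown library 3 (log2 fold change 0.43, adjusted p = 0.053) and without scrambled library 1 (0.38, adjusted p = 0.074). RAD51D shares 8.01% of its exon bases with a readthrough transcript.

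RAD51C was at 87.3, 114.5 and 101.6 CPM in knockdown libraries, against 82.9, 81.5 and 94.0 CPM in scrambled libraries, and missed the threshold with a log2 fold change of 0.23 (95% interval 0.00 to 0.46, adjusted p = 0.072, edgeR). It passed without knockdown library 1 (log2 fold change 0.33, adjusted p = 0.012), which was its lowest, and without scrambled library 3 (0.29, adjusted p = 0.046). RAD51B had a log2 fold change of 0.03 (95% interval -0.26 to 0.32) and XRCC3 one of 0.08 (95% interval -0.14 to 0.29), and both overlapped between groups. XRCC3 shares 76.7% of its exon bases with KLC1 on the opposite strand, and the strand setting of the counting is not given in the sources used here.

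RAD51AP1 rose more than any other member, while the translocases RAD54L and RAD54B and the helicase BLM fell. RAD51AP1, which helps the recombinase join the broken strand to its partner, was at 66.6, 79.1 and 68.5 CPM in knockdown libraries, against 26.8, 26.6 and 34.0 CPM in scrambled libraries. Each knockdown library stood far above each scrambled one, and the fold was 2.45 (log2 fold change 1.30, SE 0.12, adjusted p = 1.7e-06, edgeR). RAD51AP1 has 1 named pseudogene copy. BLM, the helicase that takes apart crossed strands, was at 27.3, 30.7 and 28.6 CPM in knockdown libraries, against 45.6, 52.6 and 54.4 CPM in scrambled libraries, and its log2 fold change was -0.82 (SE 0.10, adjusted p = 2.4e-05, edgeR).

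RAD54L, a motor that remodels the recombinase on DNA, was at 34.1, 31.4 and 40.6 CPM in knockdown libraries, against 50.9, 49.6 and 68.0 CPM in scrambled libraries. Its groups did not overlap, although scrambled library 3 stood above the other 2, and it fell by 0.67 on the log2 scale (SE 0.14, adjusted p = 0.0014, edgeR). RAD54B, its relative, was at 11.0, 15.1 and 10.2 CPM in knockdown libraries, against 17.1, 16.04 and 18.1 CPM in scrambled libraries. It fell by 0.49 (SE 0.15, adjusted p = 0.014, edgeR), and without knockdown library 3 the call was lost (log2 fold change -0.38, adjusted p = 0.053). RAD54B shares 59.1% of its exon bases with FSBP on the same strand and RAD54L 25.1% with LRRC41 on the opposite strand.

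**Figure D2:**
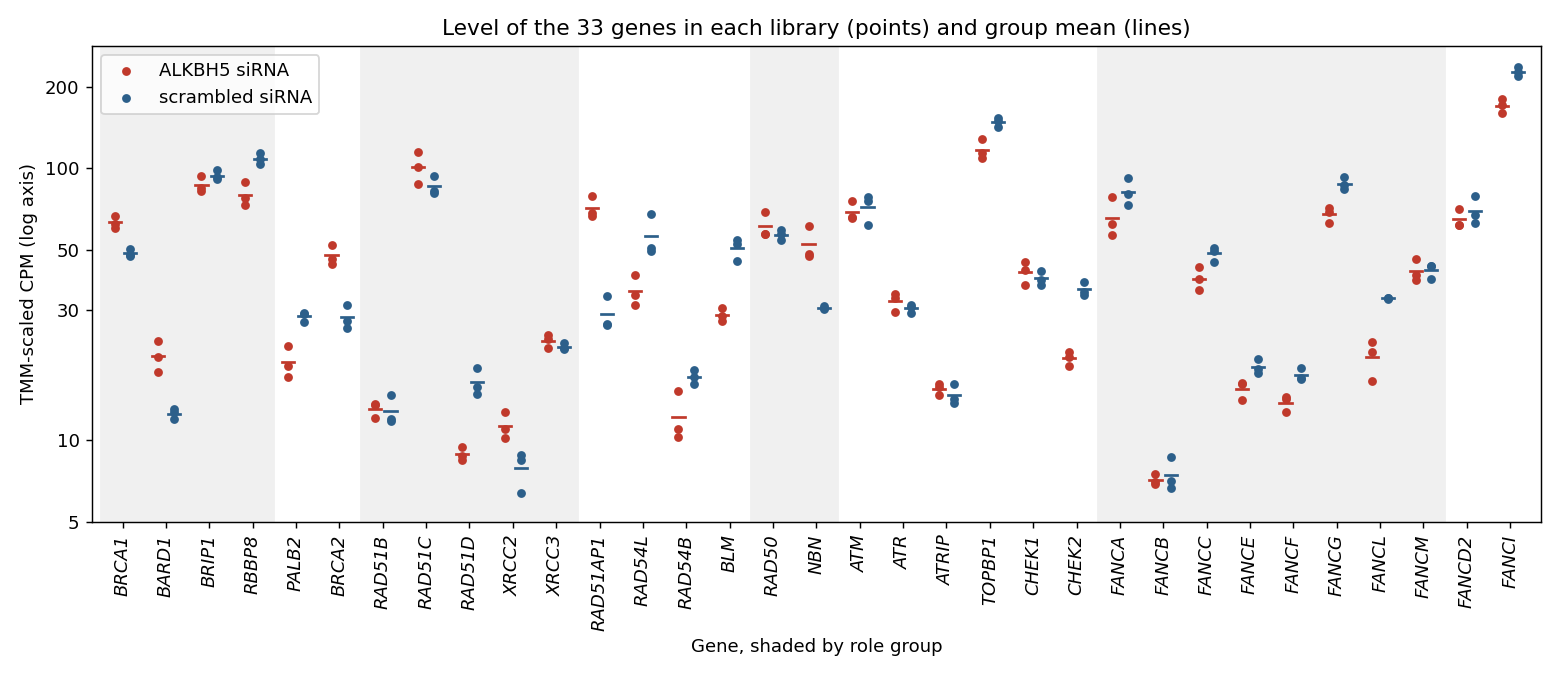
CPM of the 33 genes in each library on a log axis, with the 3 ALKBH5 siRNA libraries (red) left of the 3 scrambled siRNA libraries (blue) and lines at the means. RAD51AP1, BRCA2 and NBN show knockdown points above all scrambled points, and BLM, CHEK2 and RAD51D show them below.

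In the checkpoint group the apical kinases did not pass the test, whereas TOPBP1 and CHEK2 fell. CHEK2, the kinase that ATM switches on, was at 18.7, 20.3 and 21.1 CPM in knockdown libraries, against 35.0, 34.3 and 38.3 CPM in scrambled libraries. The groups lay far apart, and CHEK2 was lower by a factor of 1.79 (log2 fold change -0.84, SE 0.10, adjusted p = 1.8e-05, edgeR). CHEK2 has 4 named pseudogene copies, and since reads with more than 1 placement were not counted, its level is uncertain. TOPBP1, the activator of ATR, averaged 117 ± 9.88 CPM in knockdown cells and 149 ± 5.65 CPM in scrambled cells (SD, n = 3 each), without overlap, and fell by 0.35 on the log2 scale (SE 0.08, adjusted p = 0.0029, edgeR).

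ATM was at 66.2, 75.7 and 65.9 CPM in knockdown libraries, against 76.0, 78.6 and 61.7 CPM in scrambled libraries, so its groups overlapped widely. Its log2 fold change was -0.06, with a 95% interval of -0.29 to 0.17. ATR was at 29.6, 33.3 and 34.5 CPM in knockdown libraries, against 31.3, 30.9 and 29.2 CPM in scrambled libraries. ATR's interval was -0.13 to 0.31, that of its partner ATRIP was -0.18 to 0.34, and that of CHEK1, the kinase downstream of ATR, was -0.14 to 0.30. The data therefore leave room for a log2 change of -0.29 in ATM and of 0.34 in ATRIP. ATRIP shares 27.9% of its exon bases with TREX1 on the same strand, and ATR 16.4% with a pseudogene on the opposite strand.

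In the Fanconi core, its anchor and its substrates FANCD2 and FANCI, no member rose. Of the other members that are also Fanconi anaemia genes, BRCA1, BRCA2 and XRCC2 rose, PALB2 fell, and BRIP1 and RAD51C did not pass the test. FANCL, the ubiquitin ligase subunit of the core complex, was at 21.0, 22.9 and 16.5 CPM in knockdown libraries, against 33.2, 33.3 and 33.2 CPM in scrambled libraries. The scrambled libraries were nearly identical, the knockdown libraries all lay below them, and FANCL was lower by a factor of 1.65 (log2 fold change -0.72, SE 0.12, adjusted p = 0.00027, edgeR). FANCG, an adaptor within the core, averaged 68.0 ± 4.51 CPM in knockdown cells and 87.8 ± 4.49 CPM in scrambled cells (SD, n = 3 each) and fell by 0.37 on the log2 scale (SE 0.085, adjusted p = 0.0026, edgeR). Some of FANCL's exon bases, 18.7%, are shared with VRK2 on the opposite strand.

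FANCC and FANCF, a core subunit and the adaptor that joins the core's parts, fell by 0.31 and 0.34 on the log2 scale (adjusted p = 0.018 and 0.022, edgeR), with no overlap between groups. FANCC was lost without knockdown library 3 (log2 fold change -0.24, adjusted p = 0.068), scrambled library 1 (-0.30, 0.05) or scrambled library 3 (-0.28, 0.051). FANCF was lost without knockdown library 3 (-0.28, adjusted p = 0.075) or scrambled library 1 (-0.30, 0.081). FANCA, a scaffold of the core, was at 56.8, 62.2 and 78.3 CPM in knockdown libraries, against 80.3, 73.5 and 91.9 CPM in scrambled libraries. FANCA's groups overlapped although its change of -0.32 passed (adjusted p = 0.045, edgeR), and the call was lost without knockdown library 1 (-0.22, adjusted p = 0.15) or 2 (-0.27, 0.14) and without scrambled library 1 (-0.33, 0.085) or 3 (-0.23, 0.17). FANCA shares 23.6% of its exon bases with ZNF276 on the opposite strand.

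Of the other 3 genes of this group, FANCE, which binds FANCD2 for the core, was at 16.1, 16.2 and 14.1 CPM in knockdown libraries, against 18.3, 17.6 and 19.9 CPM in scrambled libraries. Its groups did not overlap, yet the change of -0.27 missed the threshold (95% interval -0.52 to -0.02, adjusted p = 0.059, edgeR). FANCB and FANCM, a core subunit and the translocase that anchors the core to DNA, had log2 fold changes of -0.06 (95% interval -0.40 to 0.29) and -0.01 (95% interval -0.23 to 0.21). Thus 5 of the 8 core and anchor genes fell and 0 rose, with a median log2 fold change of -0.31, where 30.8% of all tested genes fell. That count was 4 without knockdown library 1 or 2, 3 without knockdown library 3 or scrambled library 3, 2 without scrambled library 1 and 5 without scrambled library 2. Their CPM summed to 263 to 277 in knockdown libraries and 321 to 354 in scrambled libraries.

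The substrates of the core complex differed in their test results. FANCI was at 160, 171 and 180 CPM in knockdown libraries, against 227, 219 and 236 CPM in scrambled libraries, and fell by 0.42 on the log2 scale (SE 0.075, adjusted p = 0.00045, edgeR). FANCD2 was at 62.1, 61.8 and 70.8 CPM in knockdown libraries, against 62.9, 67.3 and 79.4 CPM in scrambled libraries. FANCI's groups lay apart and FANCD2's overlapped, with an interval of -0.33 to 0.12 for FANCD2 (adjusted p = 0.40, edgeR). FANCD2 has 1 named pseudogene copy.

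**Figure D3:**
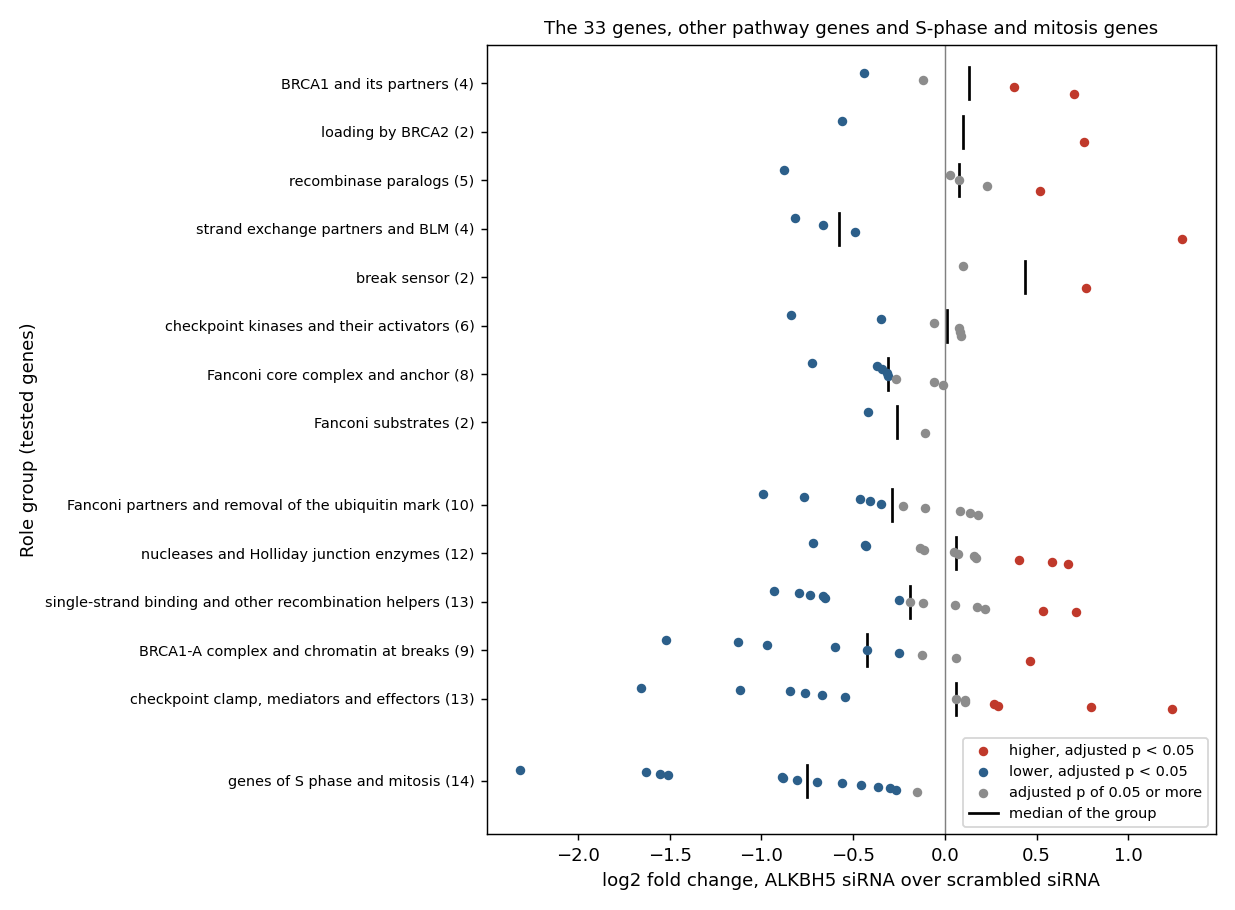
Log2 fold change, ALKBH5 siRNA over scrambled siRNA, of each gene by role group, with the 33 genes in the upper 8 rows, other pathway genes below them and genes of S phase and mitosis last. Red points were higher, blue lower and grey not called, and bars mark group medians. All 8 points of the Fanconi core and anchor lie below 0, but FANCM (-0.01) and FANCB (-0.06) lie close to it. Both changed sign in fits with a library left out. The groups around BRCA1, BRCA2 and the paralogs hold points on both sides.

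Because several members work as pairs, the ratio of their counts was taken within each library, which is free of the scaling between libraries. The ratio of BRCA2 to PALB2 was 2.60, 2.36 and 2.48 in knockdown libraries, against 1.00, 1.08 and 0.88 in scrambled libraries. RAD51D to XRCC2 was 0.859, 0.769 and 0.742 in knockdown libraries, against 2.33, 1.85 and 2.08 in scrambled libraries. RAD50 to NBN averaged 1.17 ± 0.046 in knockdown libraries and 1.86 ± 0.098 in scrambled libraries (SD, n = 3 each). For these pairs the groups lay far apart, by 1.33 (SE 0.095), -1.40 (SE 0.11) and -0.67 (SE 0.055) on the log2 scale.

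BRCA1 to BARD1 averaged 3.13 ± 0.33 in knockdown libraries and 3.90 ± 0.21 in scrambled libraries, and FANCD2 to FANCI averaged 0.381 ± 0.017 and 0.307 ± 0.030 in the same order (SD, n = 3 each), both without overlap. ATR to ATRIP stood at 2.10 ± 0.065 in knockdown libraries and 2.10 ± 0.25 in scrambled libraries. Of 8 pairs compared, 5 did not overlap between groups, each with an exact 2-sided permutation p = 0.1, the smallest that 3 against 3 allows, and 0.16 after Benjamini-Hochberg adjustment over the 8 pairs. No pair could therefore pass a threshold of 0.05. The ratios RAD51B to RAD51C and XRCC3 to RAD51C overlapped (exact permutation p = 0.3 and 0.6).

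**Figure D4:**
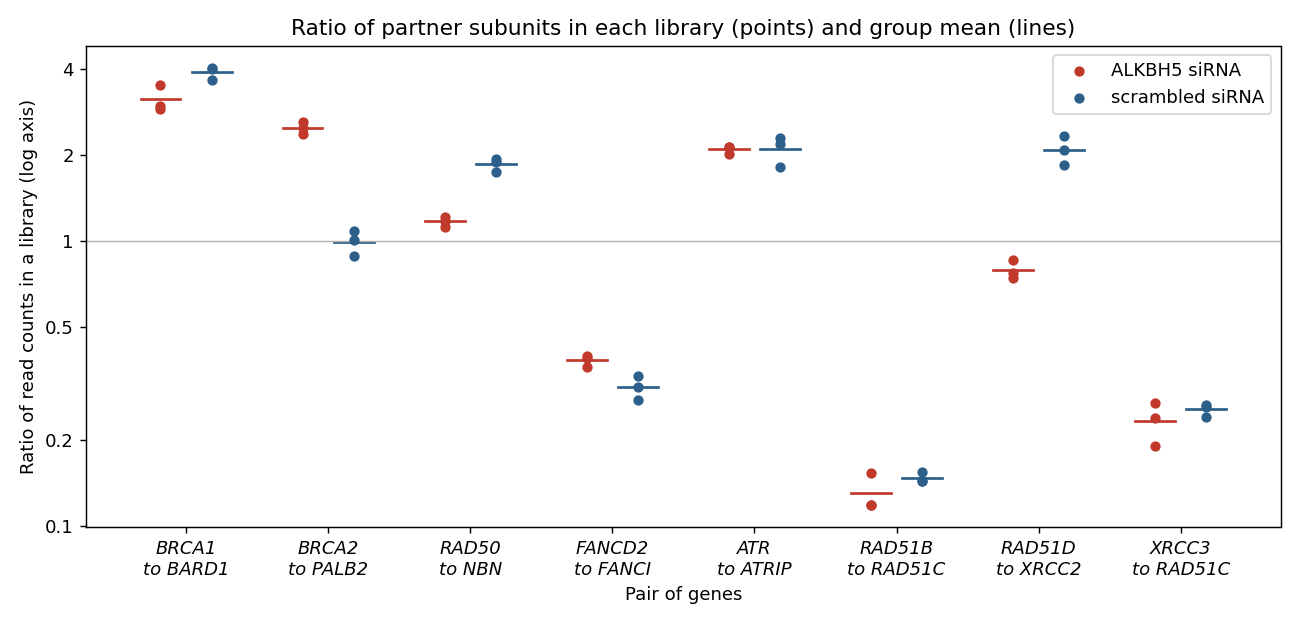
Ratio of the counts of 2 partner genes within each library on a log axis, 1 point per library, ALKBH5 siRNA (red) left of scrambled siRNA (blue), with lines at the means. BRCA2 to PALB2 lies near 2.48 in knockdown libraries and near 0.99 in scrambled libraries, RAD51D to XRCC2 lies lower in knockdown libraries, and ATR to ATRIP overlaps.

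Levels of different genes were compared per length, as RPKM (CPM divided by the kilobases of exon). Over the union of exons, RAD51AP1 was highest of the 33 in knockdown libraries, at 27.9 ± 2.63 RPKM, and ranked 9 in scrambled libraries at 11.4 ± 1.66 RPKM (SD, n = 3 each). With the longest transcript as length, RAD51AP1 ranked 3 in knockdown libraries at 33.02 RPKM, behind RAD51C at 39.0 RPKM and FANCI at 35.9 RPKM. Over the union of exons, FANCI was second in knockdown libraries at 21.9 ± 1.26 RPKM and first in scrambled libraries at 29.3 ± 1.12 RPKM. NBN ranked 9 in knockdown libraries and 20 in scrambled libraries on that scale. RAD51D was lowest in knockdown libraries at 0.784 ± 0.045 RPKM, beside 1.44 ± 0.17 RPKM in scrambled libraries. That place rests on the annotated length of RAD51D, 11304 exon bases in the union and 9988 in the longest transcript. By CPM, without length, FANCB was lower in knockdown libraries, at 7.15 CPM beside 8.86 CPM for RAD51D. Most neighbours in the knockdown order, 25 of 32 pairs, overlapped in their values, so that order is coarse.

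The members were also described by the sequence of their mRNAs, since the m6A mark is written mostly within words such as GGACT. The 6 genes that rose held a median of 0.338 GGACT words per kilobase of the longest transcript, the 14 that fell 0.914 and the 13 not called 0.913. BARD1 and XRCC2 held none. Over all tested genes with a matched transcript, the medians were 0.906 for higher, 0.946 for lower and 0.943 for those not called. Across the 33 genes, Spearman's rho of the log2 fold change with the words per kilobase was -0.432, and with GC content it was -0.372. Across 12704 tested genes these were -0.0213 and -0.00127. All points share the same 6 libraries, genes are not independent replicates, and no methylation was measured in these libraries.

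**Figure D5:**
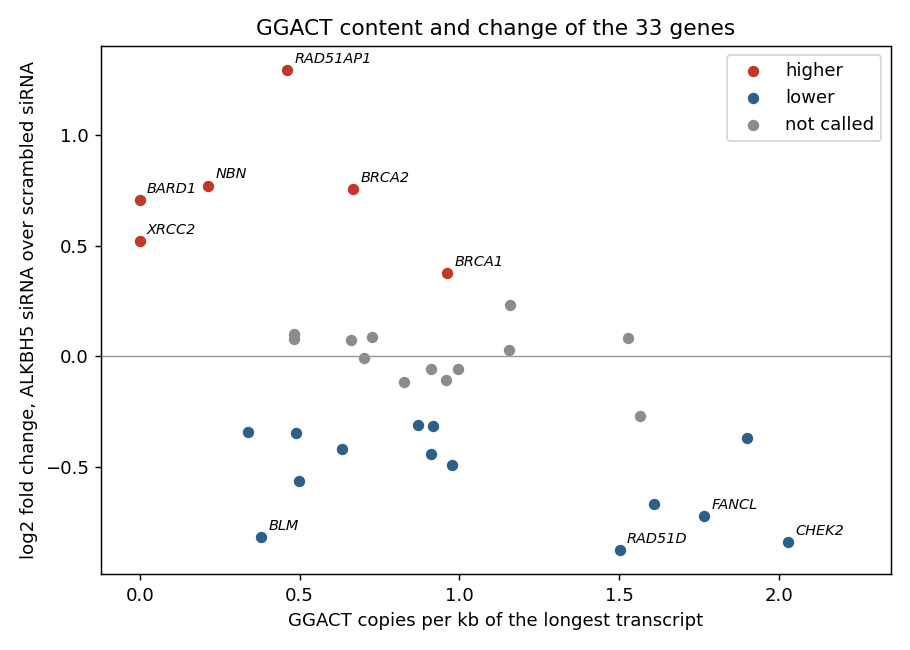
Log2 fold change of each of the 33 genes, ALKBH5 siRNA over scrambled siRNA, against GGACT words per kilobase of its longest transcript, coloured by call. The genes that rose lie at a median of 0.338 words and those that fell at 0.914, with a wide spread in both.

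Beyond the 33, 58 further genes of these pathways were listed, and 57 were tested. Of these, 10 rose, 26 fell and 21 did not pass, 63.2% called beside 61.6% of all tested genes, with a median log2 fold change of -0.14. Around the Fanconi core, 5 of 10 fell and 0 rose, but without knockdown library 2 the counts were 6 and 2, with C17orf70 (log2 fold change 0.22, adjusted p = 0.036) and C1orf86 (0.40, 0.019) then higher. Those that fell, beside 30.8% of all tested genes, included WDR48, the partner of the deubiquitinase that removes the mark from FANCD2 (37.4 ± 2.67 CPM in knockdown cells and 63.7 ± 2.81 CPM in scrambled cells), and UBE2T, the conjugating enzyme that works with FANCL (56.1 ± 4.27 and 77.4 ± 0.321 CPM). APITD1, a partner of FANCM, averaged 8.36 ± 0.582 CPM in knockdown cells and 16.6 ± 2.01 CPM in scrambled cells. All these are mean ± SD with n = 3 each.

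The subunits of the BRCA1-A complex, which holds BRCA1 at ubiquitin marks on chromatin, fell together. BABAM1 averaged 40.5 ± 1.43 CPM in knockdown cells and 79.3 ± 2.31 CPM in scrambled cells (log2 fold change -0.97, adjusted p = 1e-06, edgeR). FAM175A, the scaffold also called Abraxas, averaged 14.9 ± 1.60 and 32.6 ± 3.15 CPM in the same order, and BRE averaged 55.7 ± 3.67 and 84.5 ± 6.13 CPM. BRCC3 and UIMC1 fell by 0.43 and 0.25 on the log2 scale (adjusted p = 0.021 and 0.025, edgeR). UIMC1 lost its call without knockdown library 3 (log2 fold change -0.23, adjusted p = 0.059) or scrambled library 2 (-0.23, 0.095). BRCC3 lost it without knockdown library 3 (-0.33, adjusted p = 0.077), scrambled library 1 (-0.40, 0.064) or scrambled library 3 (-0.37, 0.071). H2AFX, the histone variant marked at breaks, averaged 90.2 ± 18.3 CPM in knockdown cells and 259 ± 25.0 CPM in scrambled cells. With H2AFX, 6 of the 9 genes of the group fell and 1 rose, where 30.8% of all tested genes fell and 30.8% rose. Without knockdown library 3, 4 of the 9 fell.

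Among single-strand binding proteins and other helpers, 6 of 13 fell and 2 rose, a called share near the 61.6% of all tested genes. SHFM1, the small acidic partner of BRCA2, averaged 130 ± 5.77 CPM in knockdown cells and 248 ± 10.5 CPM in scrambled cells (log2 fold change -0.93, adjusted p = 6e-07, edgeR), whereas BRCA2 itself rose. RPA2 and RPA3, subunits that coat single-stranded DNA, fell by 0.66 and 0.73 on the log2 scale. POLQ, the polymerase of a different end-joining route, rose to 71.5 ± 3.77 CPM in knockdown cells, against 49.3 ± 0.686 CPM in scrambled cells (SD, n = 3 each).

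Of 12 nucleases and junction enzymes, 3 rose and 3 fell, where 30.8% of all tested genes rose and 30.8% fell. Without knockdown library 2 or scrambled library 2, 2 of the 12 rose. Without knockdown library 1, 4 rose, with EXO1 (log2 fold change 0.28, adjusted p = 0.04, edgeR) then higher. MUS81, which cuts crossed strands, averaged 81.2 ± 5.65 CPM in knockdown cells and 51.0 ± 2.23 CPM in scrambled cells, and DNA2, which cuts back ends, averaged 36.0 ± 3.52 and 59.2 ± 2.38 CPM in the same order (SD, n = 3 each). ERCC1 rose by 0.58 on the log2 scale and SLX4, the scaffold for these nucleases, fell by 0.43.

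In the checkpoint clamp and its mediators, 4 of 13 rose and 6 fell, where 30.8% of all tested genes rose and 30.8% fell. TIMELESS and TIPIN, which travel with the replication fork as a pair, averaged 36.7 ± 1.82 and 12.2 ± 1.11 CPM in knockdown cells, against 116 ± 5.17 and 26.5 ± 3.84 CPM in scrambled cells (SD, n = 3 each). CLSPN, the mediator between ATR and CHEK1, fell by 0.76 on the log2 scale. WEE1, the kinase that holds cells before mitosis, averaged 167 ± 7.25 CPM in knockdown cells and 70.9 ± 4.43 CPM in scrambled cells (log2 fold change 1.24, adjusted p = 1.1e-07, edgeR). Of the clamp and its loader, RAD9A, HUS1 and RAD17 rose by 0.80, 0.29 and 0.27 on the log2 scale, and RAD1 did not pass (log2 fold change 0.11, adjusted p = 0.29, edgeR). Without scrambled library 2 only 2 genes of the group rose, with HUS1 at 0.26 (adjusted p = 0.072) and RAD17 at 0.24 (adjusted p = 0.097). RAD17 also lost its call without knockdown library 2 (0.18, adjusted p = 0.088) or scrambled library 1 (0.26, 0.067).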

How the data were processed

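The authors deposited whole-number read counts for each gene symbol, without scaling. Tools named in the submitters' processing notes are CASAVA 1.8.2, TopHat2, SAMtools and HTSeq, with hg19 as the build. Settings, annotation and counting strand: not given in the sources used here. A stranded kit was used, per the labels' protocols. The series table held the same values as the sample files in all 23233 lines, and 5 summary entries were left out of library sizes and tests. Uniquely placed reads outside genes made up 17.9% ± 0.66 in knockdown libraries and 15.3% ± 0.23 in scrambled libraries (SD, n = 3 each). Same-group libraries differed by more than sampling noise.

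These counts went into edgeR 4.0.16 in R 4.3.3 (filterByExpr, TMM, robust quasi-likelihood fit, group as the single term, 2-sided) with Benjamini-Hochberg adjustment over 14504 genes. Fold changes set knockdown over scrambled libraries. On simulated counts for 14207 tested genes, 200 genes were changed by known folds. Of these, 56.7% of genes changed 1.5-fold, 89.6% changed 2-fold and 97.0% changed 4-fold were recovered, and 9 of 171 calls were false. In the real data 61.6% of tested genes were called, so these shares come from a different setting and may not hold there. Exon lengths, overlaps and GGACT words came from GENCODE 29 on GRCh38, a different build from the counts. The 33 members, the role groups and the other lists were chosen with earlier results of these data known. Every member may be named, and of the other pathway genes up to 4 called per role group with the smallest adjusted p. The BRCA1-A and clamp subunits outside that rule, and the S-phase genes with values, were named after their values were seen. Alternatives were RLE scaling, library totals, filters, DESeq2 1.42.0, limma-voom 3.58.1, glmTreat, a replicate block, a GC and length correction, and leaving out each library.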

Additional observations from a re-analysis of the deposited data

How the results depend on the processing

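Of the 20 called members, 15 kept call and direction under all 15 alternatives other than glmTreat. The exceptions XRCC2, RAD54B, FANCA, FANCC and FANCF lost their calls where a library was left out. Against 1.5-fold, glmTreat called 1 member higher and 3 lower, 1 other pathway gene higher and 10 lower, 7 S-phase and mitosis genes lower, and 1891 genes higher and 1710 lower in all, since this test asks for more than any change. Leaving out a library gave 5 to 7 members higher and 11 to 14 lower. The GC and length correction, chosen after seeing the data, brought in BRIP1 (log2 fold change -0.25, adjusted p = 0.0065, edgeR), ATM (-0.27, 0.01) and RAD51C (0.30, 0.015), and turned ATR to -0.0189. With this correction the log2 fold change was 0.52 for BRCA2 (0.76 without), 0.64 for NBN (0.77) and 0.58 for BARD1 (0.71). BRCA1 (0.31) and RAD51AP1 (1.26) also came out smaller and XRCC2 (0.57) larger, and all of these stayed called. Library totals brought in FANCE (-0.33, adjusted p = 0.022) and turned RAD51B to -0.0349. Uncalled genes changed sign with a library left out, and the cause was not tested. The range was -0.0306 to 0.13 for RAD51B, -0.17 to 0.000672 for ATM, -0.14 to 0.0531 for FANCB, -0.0846 to 0.0498 for FANCM and -0.0953 to 0.0719 for the log2 ratio of ATR to ATRIP. With the longest transcript as length, the median level was 7.62 RPKM in place of 5.40. Same-numbered libraries had correlations of deviations of 0.451, 0.077 and 0.468, beside -0.5 to 0.143 for unlike numbers. The second fell short of 0.1, so the numbers were not taken as pairs, although each knockdown library correlated best with its own number (scrambled library 2 did not). The second principal component of log2 CPM, 6.8% of the variance, ordered both groups by number. It was 18.86, 4.83 and -21.49 in knockdown libraries 1 to 3, and 13.11, 2.81 and -18.12 in scrambled libraries 1 to 3. A replicate block gave 7 members higher and 15 lower, adding RAD51C (adjusted p = 0.032, edgeR) and FANCE (adjusted p = 0.05), and changed no other member's call. Over all tested genes the block gave 4865 higher and 4895 lower, beside 4471 and 4466 without it. With that block FANCA had a log2 fold change of -0.32 (adjusted p = 0.0027, edgeR). Counting error weighs most on FANCB and XRCC2, at 6.37 to 12.7 CPM.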

Other observations

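The starts of 10 members lie within 1000 bases of the start of another tested gene on the opposite strand. In 2 of these 10 pairs both genes were called, each time in the same direction. Among all tested genes there were 912 such pairs, of which 332 had both genes called, and 62.3% of the 332 had the same direction. RAD51AP1 and C12orf4 start 382 bases apart, and C12orf4 averaged 59.9 ± 5.22 CPM in knockdown cells and 33.8 ± 1.29 CPM in scrambled cells (log2 fold change 0.83, adjusted p = 1.3e-05, edgeR). PALB2 and DCTN5 start 82 bases apart, and DCTN5, a dynactin subunit, averaged 41.4 ± 2.76 CPM in knockdown cells and 89.5 ± 3.72 CPM in scrambled cells (log2 fold change -1.11, adjusted p = 5.3e-07, edgeR), all mean ± SD with n = 3 each. CHEK2 fell while HSCB, the iron-sulfur cluster chaperone beside it, did not pass (log2 fold change -0.07, adjusted p = 0.66, edgeR). FANCD2 and FANCB did not pass while their neighbours CIDECP and MOSPD2 rose by 0.74 and 0.49 on the log2 scale.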
